A study of Mus musculus with 12 samples.

Results

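The lysosomal gene set described here holds 35 mouse genes, taken as a fixed list of symbols. The rule itself uses no measured value, but the list was drawn up with earlier results of these data known. It covers 3 transcription factors of the TFEB family, 6 lysosomal membrane proteins, 5 subunits of the vacuolar ATPase, 7 proteases, 8 glycosidases and sulfatases, and 6 lipid-degrading enzymes and cofactors. All 35 were found among the 55450 genes of the table, and all 35 passed the filter on low counts that left 20612 genes for testing. RNA was sequenced from type II alveolar epithelial (AT2) cells, the surfactant-producing cells of the air sacs, in 12 libraries that form 4 groups of 3. The groups were AhRfl/fl cells with PBS, AhRfl/fl cells with CRE, Sftpc-Cre;AhRfl/fl cells with PBS, and Sftpc-Cre;AhRfl/fl cells with CRE. CRE is cockroach extract, given to the cultured cells at 50 µg/ml for 24 h, and is not to be confused with Cre recombinase. Every mouse, controls included, carried the floxed allele of Ahr, which encodes the aryl hydrocarbon receptor, a ligand-activated transcription factor. The deleted mice also carried Cre under the Sftpc promoter, which drives expression in AT2 cells. The mice were C57BL/6 animals of 6 to 8 weeks. AT2 cells were enriched by depletion of cells bearing CD16/32, CD45, Ter119 or Sca-1 followed by panning on IgG, and were cultured on collagen I. The libraries of a group are numbered 1 to 3 without a statement that they came from separate animals, so p-values measure only the spread between these samples.

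Lysosomes are acidic organelles that break down protein, glycan and lipid delivered by endocytosis and autophagy. The vacuolar ATPase pumps protons into the lumen, the hydrolases work at the resulting low pH, and heavily glycosylated membrane proteins such as Lamp1 and Lamp2 line the inner face. TFEB, TFE3 and MITF are related basic helix-loop-helix leucine zipper factors that activate many of these genes through an E-box, CACGTG, which in its extended form is known as the CLEAR element. In AT2 cells the lamellar bodies that store surfactant are lysosome-related organelles and share several of these proteins.

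The E-box is shown in 10 promoters because it is the sequence that the TFEB family is known to bind and because several genes described in full later are among them. RefSeq promoter sequences on GRCm38.p6, from 250 bases before to 50 bases after the start of transcription, were matched for 31 of the 35 genes, as 39 promoters, since 6 genes had more than 1. Galns, Atp6v1h, Ctsb and Asah1 were not matched. The stretches below read 5′ to 3′ along the gene, with each complete CACGTG in capitals, together with its flanking T and A where they form TCACGTGA.
Mcoln1, chr8:3500447-3500506, plus strand: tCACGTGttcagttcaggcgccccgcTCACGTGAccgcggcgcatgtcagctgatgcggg
Lamp1, chr8:13159073-13159178, plus strand: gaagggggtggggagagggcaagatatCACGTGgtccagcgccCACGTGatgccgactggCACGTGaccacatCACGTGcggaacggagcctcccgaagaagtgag
Cln3, chr7:126583325-126583384, minus strand: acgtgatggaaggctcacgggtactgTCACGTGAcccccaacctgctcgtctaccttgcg
Atp6v0d1, chr8:105566035-105566094, minus strand: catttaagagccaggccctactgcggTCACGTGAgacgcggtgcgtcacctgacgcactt
Atp6v0e, chr17:26676372-26676425, plus strand: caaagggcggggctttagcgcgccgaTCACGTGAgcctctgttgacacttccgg
Atp6v1a, chr16:44139358-44139417, minus strand: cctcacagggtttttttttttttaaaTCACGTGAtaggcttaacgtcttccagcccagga
Ctsa, chr2:164833746-164833802, plus strand: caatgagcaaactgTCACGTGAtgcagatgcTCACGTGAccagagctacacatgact
Ctsd, chr7:142387893-142387952, minus strand: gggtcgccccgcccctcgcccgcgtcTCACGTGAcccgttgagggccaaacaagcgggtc
Gla, chrX:134601167-134601255, minus strand: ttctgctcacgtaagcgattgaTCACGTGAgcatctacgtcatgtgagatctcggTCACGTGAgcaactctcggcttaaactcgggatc
Naglu, chr11:101069994-101070053, plus strand: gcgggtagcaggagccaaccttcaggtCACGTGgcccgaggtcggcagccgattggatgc

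CACGTG, which reads the same on both strands, was present in 13 of the 39 promoters (33.3%), against 7.15% of all 32851 promoters in the table and 9.09% of the 16609 promoters of tested genes. Besides the 10 genes shown, Ctsl, Gaa and Glb1 had it. The longer TCACGTGA, also palindromic and always containing CACGTG, was in 8 of the 39 promoters (20.5%), against 0.974% of all promoters and 1.55% of those of tested genes. Lamp1 had 4 copies of CACGTG within the stretch shown, the most of the promoters printed here. The core of the dioxin response element, to which the aryl hydrocarbon receptor binds, was searched as GCGTG on both strands (CACGC on the other). It was in 19 of the 39 promoters (48.7%), close to the 46.1% of promoters of tested genes and above the 32.4% of all promoters. The longer form TNGCGTG was found in the promoter of Ctsl alone, 2.56% of the promoters against 7.14% for tested genes and 5.07% for all. No CACGTG match overlapped a GCGTG match. These matches describe letters in a window and not binding.

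The 35 genes spanned a wide range of levels (deposited FPKM, fragments scaled to gene length and library size, which allows genes to be compared). Ctsd, the aspartic protease cathepsin D, was the highest, with a mean over the 12 libraries of 724 FPKM and a range of 625 to 844. Lamp1, the main lysosomal membrane glycoprotein, followed at 425 FPKM (389 to 468). Ctsz, the carboxypeptidase cathepsin Z, at 189 FPKM (157 to 219) and Psap, the precursor of the sphingolipid activator proteins, at 189 FPKM (140 to 285) could not be ordered. Cd63, a tetraspanin of late endosomes and lysosomes, had 167 FPKM (152 to 195) and Ctsb, cathepsin B, 119 FPKM (101 to 139). Only for Ctsd, Lamp1, Cd63, Asah1 and Cln3 did the lowest of the 12 libraries exceed the highest of the next gene in the order. Elsewhere the ranges of neighbours overlapped, and the order given is that of the means. Asah1, acid ceramidase, had 81.9 FPKM (65.4 to 98.6).

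The membrane proteins were spread widely below Lamp1. Lamp2, its relative needed for chaperone-mediated autophagy, had 43.0 FPKM (39.5 to 45.9) and Scarb2 37.6 FPKM (32.5 to 41.9). Cln3, a membrane protein mutated in juvenile Batten disease, had 5.57 FPKM (4.85 to 6.43), and Mcoln1, the calcium channel mucolipin 1, had 4.35 FPKM (3.71 to 4.75). The subunits of the proton pump differed in level. Atp6v0d1 had 100 FPKM (84.2 to 130), and the accessory subunit Atp6ap1 had 44.8 FPKM (39.8 to 54.5). Atp6v0e had 36.9 FPKM (32.2 to 43.8), close to the catalytic Atp6v1a at 36.7 FPKM (32.4 to 40.1), whereas Atp6v1h, which regulates the soluble sector, had 12.4 FPKM (11.0 to 13.1).

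Among the proteases Ctsl, cathepsin L, had 37.5 FPKM (33.1 to 43.4) and Tpp1 31.4 FPKM (26.3 to 37.7). Ctsc, cathepsin C, which activates serine proteases of granules, had 29.1 FPKM (24.6 to 34.8) and Ctsa 22.0 FPKM (16.6 to 26.1). The glycosidases were led by Hexa, the alpha subunit of beta-hexosaminidase, at 41.3 FPKM (35.02 to 50.85). Gaa, which degrades glycogen, had 22.6 FPKM (19.7 to 26.7), Gusb 16.1 FPKM (13.2 to 19.2) and the sialidase Neu1 13.4 FPKM (11.1 to 15.9). Glb1, beta-galactosidase, had 10.9 FPKM (9.62 to 13.1) and Gla, alpha-galactosidase A, 8.39 FPKM (7.60 to 11.0). Naglu had 6.91 FPKM (5.44 to 8.35) and the sulfatase Galns, which acts on keratan and chondroitin sulfate, 2.92 FPKM (2.10 to 3.68). Of the lipid group, Grn had 36.7 FPKM (27.2 to 47.1), Smpd1 31.0 FPKM (22.8 to 39.7), Ppt1, palmitoyl-protein thioesterase 1, 13.0 FPKM (10.7 to 15.4) and Lipa 3.49 FPKM (1.59 to 7.47). The 3 transcription factors were all among the 8 lowest genes. Tfe3 was the highest of the family at 6.93 FPKM (6.41 to 7.63), with Tfeb at 1.68 FPKM (1.22 to 2.19) and Mitf at 1.43 FPKM (0.533 to 1.98). In every library Tfe3 lay above both other factors.

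**Figure D1:**
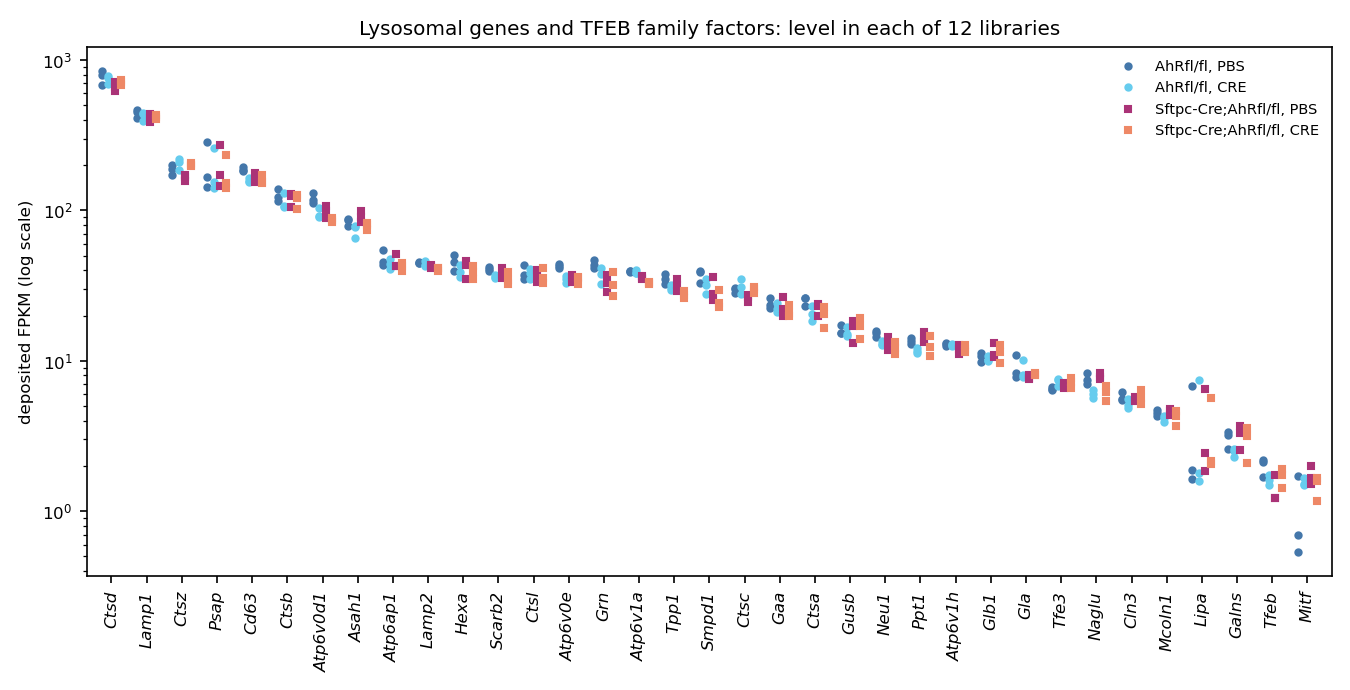
Deposited FPKM on a log axis for each of the 35 genes, ordered by mean, with 1 point for each of the 12 libraries coloured by group. Ctsd sits at 625 to 844 and Mitf at 0.533 to 1.98 FPKM, and the points of Lipa spread from 1.59 to 7.47.

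Total counts per library ranged from 68878065 to 80935797, and the 35 genes together took 0.837% to 0.999% of them. Total counts of Ahr did not pass edgeR's test between genotypes, at 0.039 on the log2 scale under PBS and -0.18 under CRE. The edgeR adjusted p was 0.990 and 0.964. Cyp1b1, a target of the receptor, was lower by edgeR with log2 fold changes of -3.10 and -3.17. Cyp1a1 was at -1.67 under PBS and -1.38 under CRE and passed in neither (adjusted p = 0.193 and 0.454, edgeR). Averaged over treatments Cyp1a1 passed, at -1.52 (adjusted p = 0.0324, edgeR). The 10 AT2 markers summed to 4620 to 9411 CPM (counts scaled to library size by the trimmed mean of M-values) and 4 club cell markers to 3982 to 8106 CPM, so airway cell RNA was present in every library. The 6 AT1 cell markers summed to 841 to 1265 CPM with PBS and 563 to 868 CPM with CRE. Their part in the differences between treatments was not tested. The 6 ciliated cell markers summed to 129 to 172 CPM in AhRfl/fl and 171 to 286 CPM in Sftpc-Cre;AhRfl/fl cells with PBS, and to 118 to 174 and 174 to 285 CPM with CRE, where the groups narrowly did not overlap. In such bulk libraries fewer cells of a type and less RNA per cell cannot be told apart.

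Lipa and Psap were far higher in the library numbered 1 of every group than in the others. Lipa, lysosomal acid lipase, had 50.9, 14.6 and 12.6 CPM in the AhRfl/fl PBS libraries 1, 2 and 3, and 55.4, 12.3 and 13.9 CPM in the AhRfl/fl CRE libraries. In Sftpc-Cre;AhRfl/fl cells it had 47.7, 18.1 and 14.0 CPM with PBS and 41.3, 16.4 and 16.0 CPM with CRE. The library numbered 1 was the highest of its group all 4 times, at 2.55 to 4.24 times the mean of the other two, and the other 8 libraries lay between 12.3 and 18.1 CPM. Psap showed the same order at a smaller size, with 859, 781, 804 and 689 CPM in the 4 libraries numbered 1 and 439 to 518 CPM in the other 8. Gusb, beta-glucuronidase, was also highest in each library numbered 1, by 1.09 to 1.19 times.

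A set of 15 macrophage markers moved with these genes, and so did markers of other leukocytes and of endothelium. Their summed level was 209, 182, 163 and 125 CPM in the libraries numbered 1 and 21.004 to 50.7 CPM in the other 8, and none of the 15 was at 0 in all 12 libraries. Cells bearing CD45 and CD16/32 had been depleted. The 10 markers of other leukocytes summed to 173, 142, 115 and 113 CPM in the libraries numbered 1 and 11.1 to 51.9 CPM in the other 8. The 6 endothelial markers summed to 66.9 to 84.3 CPM in the libraries numbered 1 and 39.4 to 60.4 CPM in the other 8. The 7 fibroblast markers summed highest in library 1 of AhRfl/fl cells, at 199 CPM with PBS and 179 CPM with CRE. In Sftpc-Cre;AhRfl/fl cells they were highest in library 2, at 272 CPM with PBS and 232 CPM with CRE. The part of these markers in the levels of Lipa and Psap was not tested. Not every gene followed that order, and Smpd1 was at 0.773 to 0.816 and Asah1 at 0.805 to 0.871 of the mean of the other two in the libraries numbered 1. The spread within groups was accordingly largest for Lipa (SD 1.02 on the log2 CPM scale), with Mitf at 0.489 and Psap at 0.437. It was smallest for Atp6v1a at 0.051, Tfe3 at 0.062 and Lamp2 at 0.063.

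**Figure D2:**
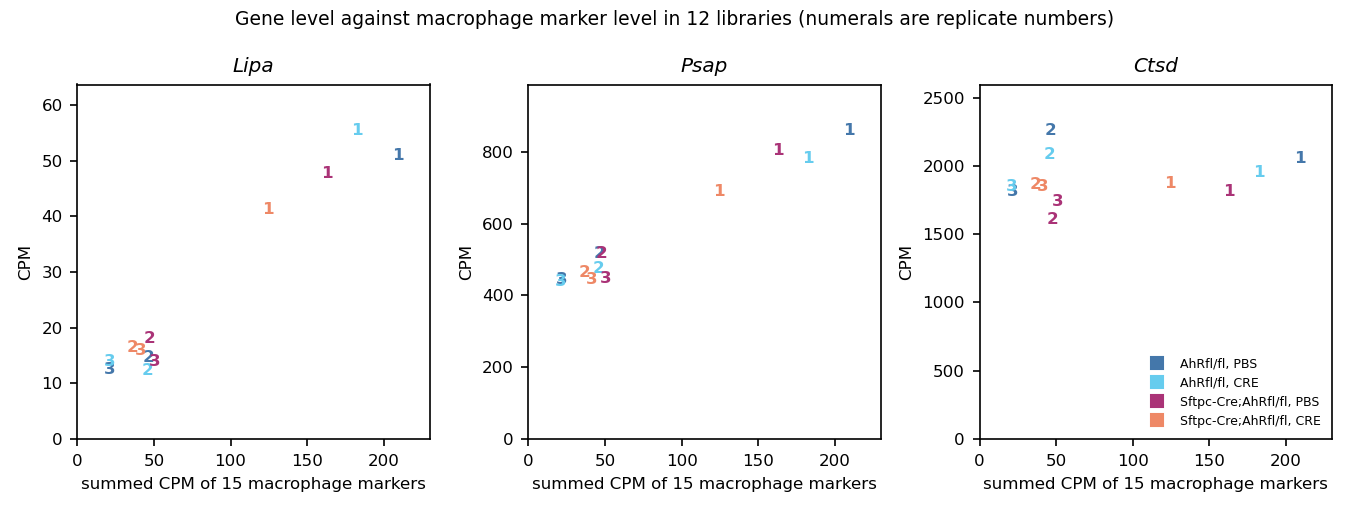
Levels of Lipa, Psap and, for comparison, Ctsd (CPM, vertical axis) against the summed CPM of 15 macrophage markers (horizontal axis) in the 12 libraries, with replicate numbers at the points. The 4 libraries numbered 1 stand apart at 125 to 209 CPM of marker signal.

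**Figure D3:**
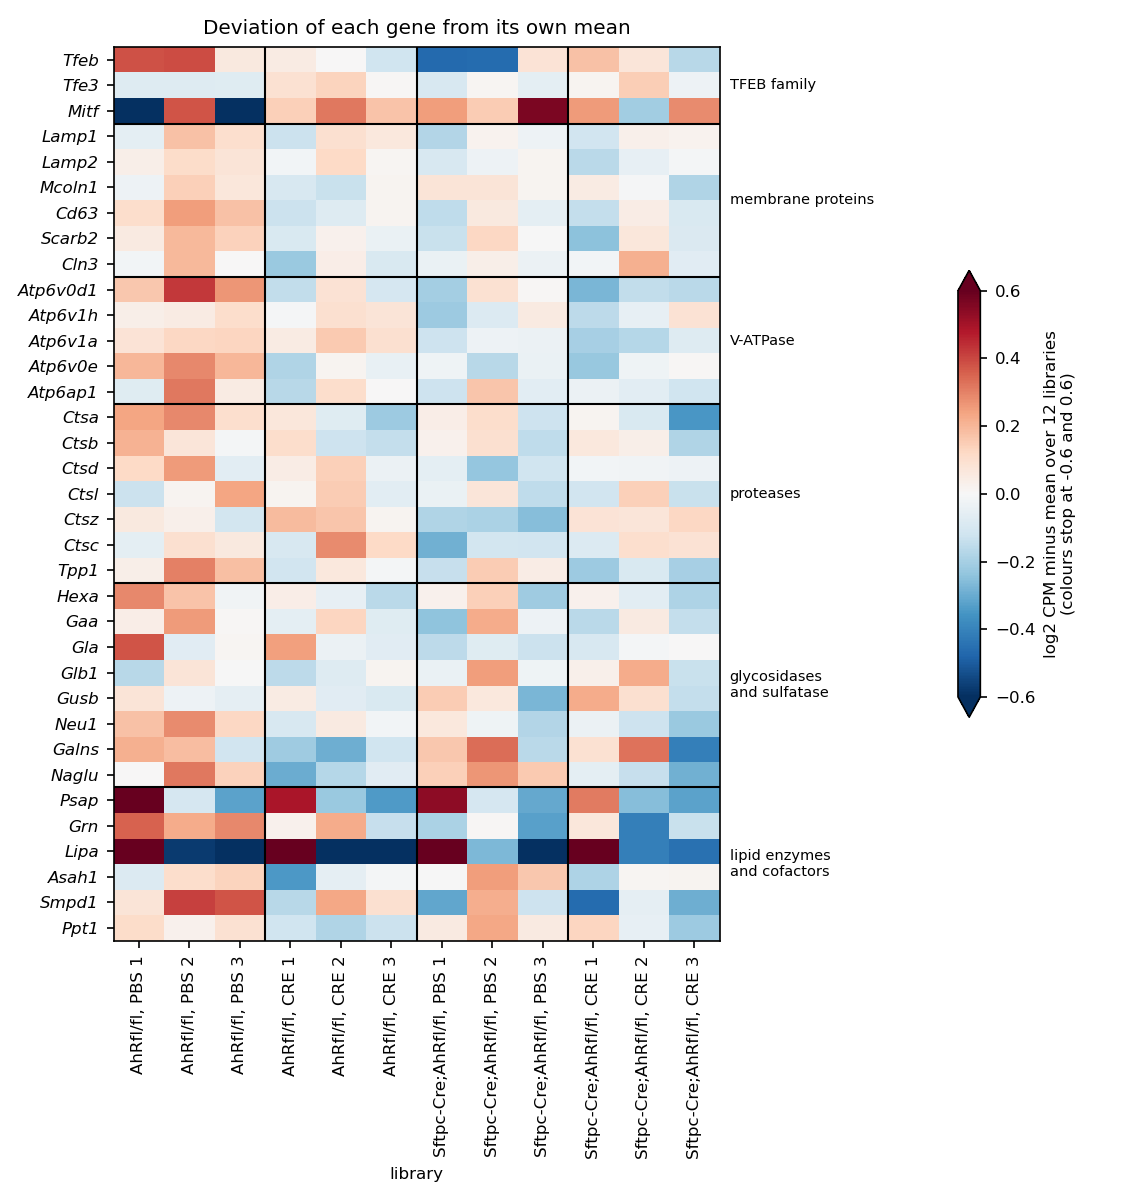
Log2 CPM of each of the 35 genes minus its own mean over the 12 libraries, with genes grouped by role and libraries by group, and colours stopping at -0.6 and 0.6. The Lipa and Psap rows are high in the libraries numbered 1, and more genes are above their mean in AhRfl/fl PBS libraries (24 to 30 of 35) than in Sftpc-Cre;AhRfl/fl CRE libraries (8 to 15 of 35).

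The first comparison asked how control cells respond to cockroach extract. In AhRfl/fl cells 30 of the 35 genes had a log2 fold change below 0 with CRE, with a median of -0.13 against -0.0012 over all 20612 genes tested, and no gene of the set passed edgeR's quasi-likelihood test at a Benjamini-Hochberg adjusted p of 0.05. The background of that call was 0.233% of all genes (48 genes). Most genes of the set lay above most tested genes in FPKM, with the first 25 by mean at or above the 80.7 percentile. The shares over all genes given here and below were not matched for level. DESeq2, which called 409 of all genes, called 1 gene of the set, Atp6v0e, as lower. By role, all 8 glycosidases and sulfatases were below 0 (median -0.15), as were all 6 membrane proteins (-0.14) and all 5 subunits of the vacuolar ATPase (-0.12). The lipid enzymes and cofactors had a median of -0.20 with 5 of 6 below 0, and the proteases -0.057 with 5 of 7 below 0. At an unadjusted edgeR p under 0.05, 1 gene was higher (Tfe3) and 7 were lower (Naglu, Neu1, Atp6v0d1, Atp6v0e, Ctsa, Cd63 and Ppt1), that is 8 of 35 where 9.36% of all genes met that limit. For 12 genes all CRE libraries lay on one side of all PBS libraries, 1 higher and 11 lower, against 16.5% of all genes, of which 1818 were higher and 1579 lower. Under the study's own rule (limma-trend, unadjusted p under 0.05 and an absolute log2 fold change over 0.5), Mitf alone was called, as higher, where 4.11% of all genes were called.

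Libraries of 1 number deviated together across treatments within each genotype, so the same comparison was also fitted with the pair as a block. That fit called 3 genes, all lower, where it called 3.63% of all genes (748 genes). Atp6v0d1 (ENSMUSG00000013160, chr8:105524465-105566047, minus strand), the d1 subunit of the membrane sector of the proton pump, had 221, 265 and 238 CPM with PBS and 179, 210 and 184 CPM with CRE in AhRfl/fl cells. All 3 CRE libraries lay below all 3 PBS libraries, and edgeR with the pair block gave a log2 difference of -0.34 (SE 0.044, adjusted p = 0.0138, or 0.273 without the block). Cd63 (ENSMUSG00000025351, chr10:128900989-128912822, plus strand) had 736, 815 and 773 CPM with PBS and 625, 650 and 692 CPM with CRE. Its groups did not overlap either, at -0.24 on the log2 scale (SE 0.038, adjusted p = 0.0252 with the pair block and 0.353 without it, edgeR). Smpd1 (ENSMUSG00000037049, chr7:105554360-105558389, plus strand), acid sphingomyelinase, had 120, 151 and 148 CPM with PBS and 101, 133 and 121 CPM with CRE. Here the groups overlapped while every pair moved down, and edgeR gave -0.24 (SE 0.045, adjusted p = 0.0413) with the block and 0.726 as the adjusted p without it. A pseudogene annotated as Cd63-ps exists, so the Cd63 counts are less certain than the others.

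Atp6v0e (ENSMUSG00000015575, chr17:26663231-26699647, plus strand), the e subunit of the same membrane sector, had 174, 185 and 174 CPM with PBS and 134, 154 and 147 CPM with CRE in AhRfl/fl cells. The groups did not overlap, and edgeR gave -0.29 on the log2 scale (SE 0.079, adjusted p = 0.228, or 0.0721 with the pair block). The third gene of the transcription factor family, Mitf (ENSMUSG00000035158, chr6:97807052-98021349, plus strand), the founding member known from pigment cells, had 3.63, 12.1 and 4.87 CPM with PBS and 10.3, 11.6 and 10.5 CPM with CRE. The PBS library numbered 2 lay above all 3 CRE libraries and the other two lay below them, so the groups overlapped. The limma-trend difference was 0.85 on the log2 scale, against 0.65 (SE 0.37, adjusted p = 0.638) by edgeR. Without AhRfl/fl PBS library 2 the limma-trend value was 1.35 and still called. The call was lost without PBS library 1, at 0.49, and without PBS library 3, at 0.70. It was also lost without CRE library 1, 2 or 3, at 0.88, 0.79 and 0.87, and without the 4 libraries numbered 1, at 0.52. Tfe3, by contrast, had 67.7 to 67.9 CPM with PBS and 71.8 to 78.3 CPM with CRE, or 0.15 on the log2 scale (SE 0.063, adjusted p = 0.482, edgeR).

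In Sftpc-Cre;AhRfl/fl cells the same treatment left 23 of the 35 genes below 0, at a median log2 fold change of -0.063, against -0.0027 over all genes. Without Sftpc-Cre;AhRfl/fl PBS library 2 that median turned to 0.022, and without Sftpc-Cre;AhRfl/fl CRE library 3 it was -0.024. No gene of the set was called by edgeR (0.262% of all genes, 54 genes) or by the study's rule (3.38%). DESeq2, which called 254 of all genes, called Ctsz. At an unadjusted edgeR p under 0.05, Ctsz was higher and Naglu lower, 2 of 35 where 6.48% of all genes met the limit. The groups did not overlap for 4 genes, with Ctsd, Ctsz and Ctsc higher and Naglu lower, against 11.8% of all genes. With the pair as a block edgeR called 1 gene of the set, Ctsz, where 2.13% of all genes (439) were called. Ctsz (ENSMUSG00000016256, chr2:174427493-174439039, minus strand) had 267, 265 and 253 CPM with PBS and 320, 318 and 329 CPM with CRE in these cells. All CRE libraries lay above all PBS libraries, and edgeR with the pair block gave 0.30 on the log2 scale (SE 0.038, adjusted p = 0.0131, or 0.149 without the block). In AhRfl/fl cells Ctsz had 316, 309 and 280 CPM with PBS and 345, 340 and 306 CPM with CRE, groups that overlapped, at 0.13 (SE 0.066, adjusted p = 0.592, edgeR).

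Averaged over both genotypes, the difference between CRE and PBS used all 6 pairs. Without the block edgeR called no gene of the set, against 1.10% of all genes (226), and the study's rule called none against 4.02%. DESeq2, which called 740 of all genes, called 3 of the set, with Naglu and Atp6v0d1 lower and Ctsz higher. At an unadjusted edgeR p under 0.05 were 11 genes, 2 higher and 9 lower, where 11.1% of all genes met the limit. With the pair block 9 of the 35 genes passed, 8 lower and 1 higher, where 6.59% of all genes passed (716 higher and 642 lower). Counting directions alone, 11 genes were lower with CRE in 6 of 6 pairs (Naglu, Psap, Mcoln1, Neu1, Atp6v0d1, Galns, Ctsa, Scarb2, Tpp1, Asah1 and Smpd1), against 6.79% of all genes. The 2 genes higher in 6 of 6 pairs were Tfe3 and Ctsz, against 7.57% of all genes.

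Among the degradative enzymes that passed with the pair block, Naglu (ENSMUSG00000001751, chr11:101070012-101077672, plus strand), alpha-N-acetylglucosaminidase of heparan sulfate breakdown, had the largest fall. It had 20.3, 25.3 and 22.3 CPM with PBS and 16.5, 18.003 and 19.3 CPM with CRE in AhRfl/fl cells. In Sftpc-Cre;AhRfl/fl cells it had 22.4, 24.3 and 22.6 CPM with PBS and 19.5, 18.4 and 16.6 CPM with CRE. The groups did not overlap in either genotype, and the averaged difference was -0.34 on the log2 scale (SE 0.061, adjusted p = 0.0213 with the pair block and 0.0748 without it, edgeR). Tpp1 (ENSMUSG00000030894, chr7:105744811-105752235, minus strand), tripeptidyl peptidase 1, had 184, 221 and 203 CPM with PBS and 166, 188 and 178 CPM with CRE in AhRfl/fl cells. In Sftpc-Cre;AhRfl/fl cells the levels were 163, 199 and 185 CPM with PBS and 154, 168 and 156 CPM with CRE, so groups overlapped in both genotypes while every pair moved down. Averaged over genotypes, Tpp1 was at -0.19 on the log2 scale (SE 0.033, adjusted p = 0.0189 with the pair block and 0.257 without it, edgeR).

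The other genes that passed with the pair block averaged over genotypes were Atp6v0d1 at -0.25 (adjusted p = 0.00547, edgeR), Smpd1 at -0.22 (0.0101) and Asah1 at -0.19 (0.0107). Ctsa, cathepsin A, which protects beta-galactosidase and neuraminidase 1, was at -0.22 (adjusted p = 0.0270, edgeR). Scarb2, the receptor that carries beta-glucocerebrosidase to lysosomes, was at -0.12 (adjusted p = 0.0279) and Cd63 at -0.13 (0.0411), both by edgeR with the block. Ctsz was the one that rose, at 0.22 (SE 0.027, adjusted p = 0.00539 with the pair block and 0.0635 without it, edgeR). Atp6v0d1 in Sftpc-Cre;AhRfl/fl cells had 172, 211 and 199 CPM with PBS and 164, 179 and 177 CPM with CRE. Smpd1 had 91.4, 132 and 104 CPM with PBS and 82.4, 109 and 92.6 CPM with CRE in these cells, again down in every pair with overlapping groups. The macrophage markers also lay mostly below 0, and edgeR called 0 of the 14 tested. Their median log2 fold change was -0.95 in AhRfl/fl and -1.06 in Sftpc-Cre;AhRfl/fl cells. That median includes markers near 0. Of the 15 listed, 4 were at 0 in all AhRfl/fl CRE libraries. Summed over markers, the AhRfl/fl pairs went from 209, 46.2 and 21.4 CPM with PBS to 182, 45.9 and 21.004 CPM with CRE. The Sftpc-Cre;AhRfl/fl pairs went from 163, 47.4 and 50.7 CPM to 125, 36.3 and 41.2 CPM. The part of these markers in the differences between treatments was not tested.

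**Figure D4:**
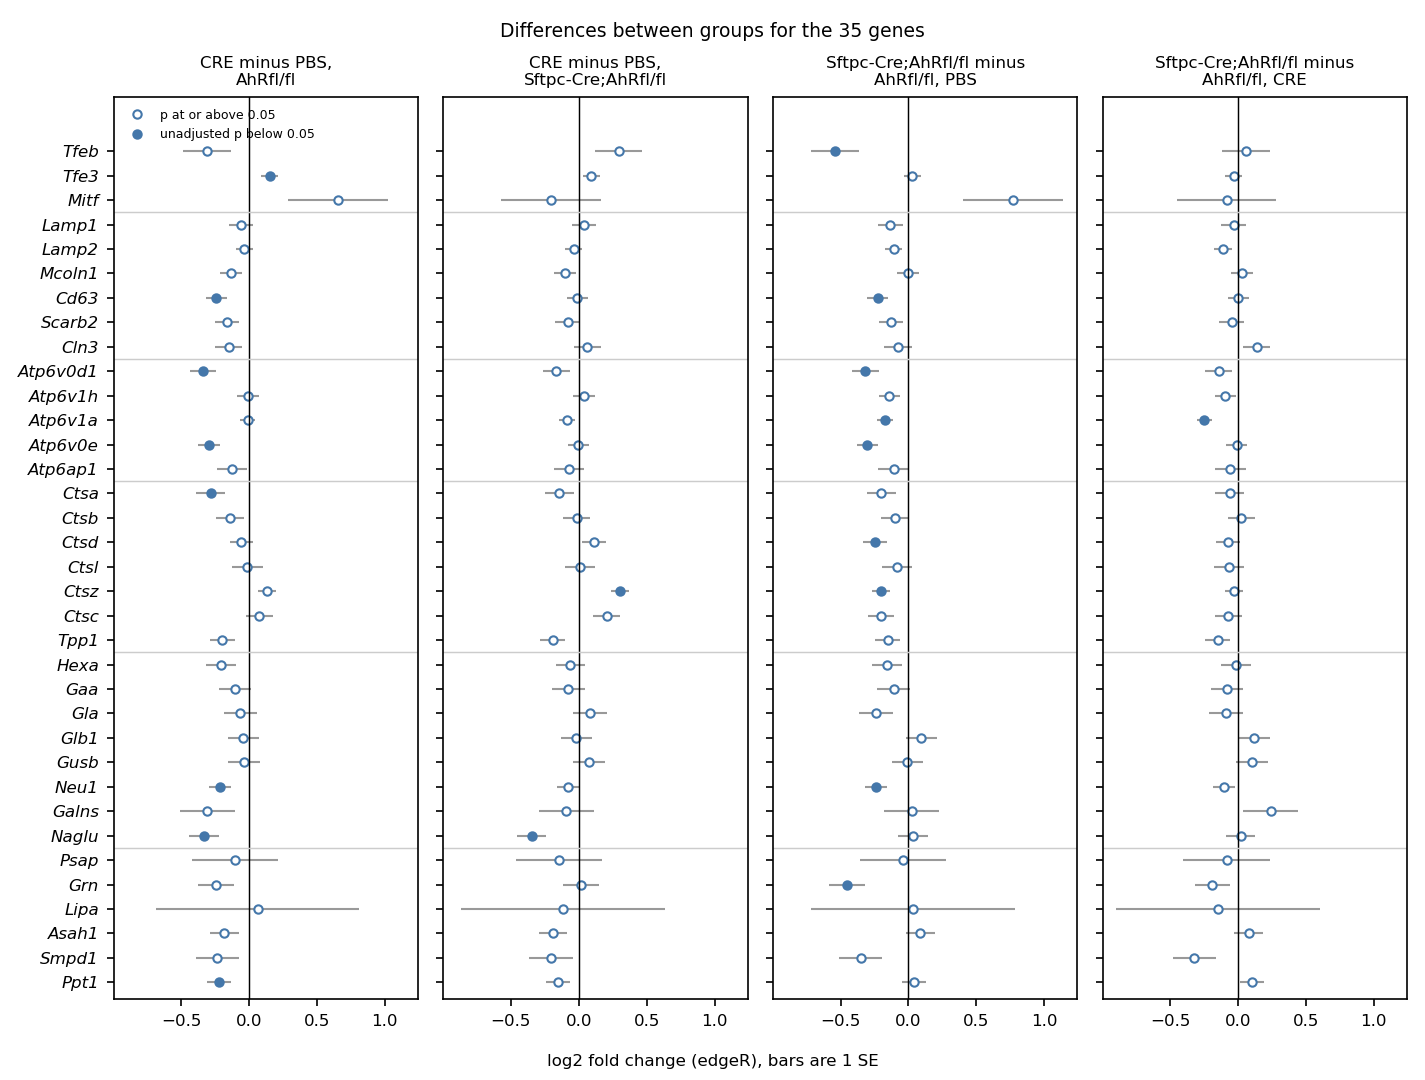
Log2 fold change (edgeR, horizontal axis, bars 1 SE) of each of the 35 genes in the 4 comparisons between groups. Most points lie left of 0 for CRE in AhRfl/fl cells (30 of 35) and for Sftpc-Cre;AhRfl/fl against AhRfl/fl under PBS (27 of 35), and bars are wide for Lipa and Mitf.

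**Figure D5:**
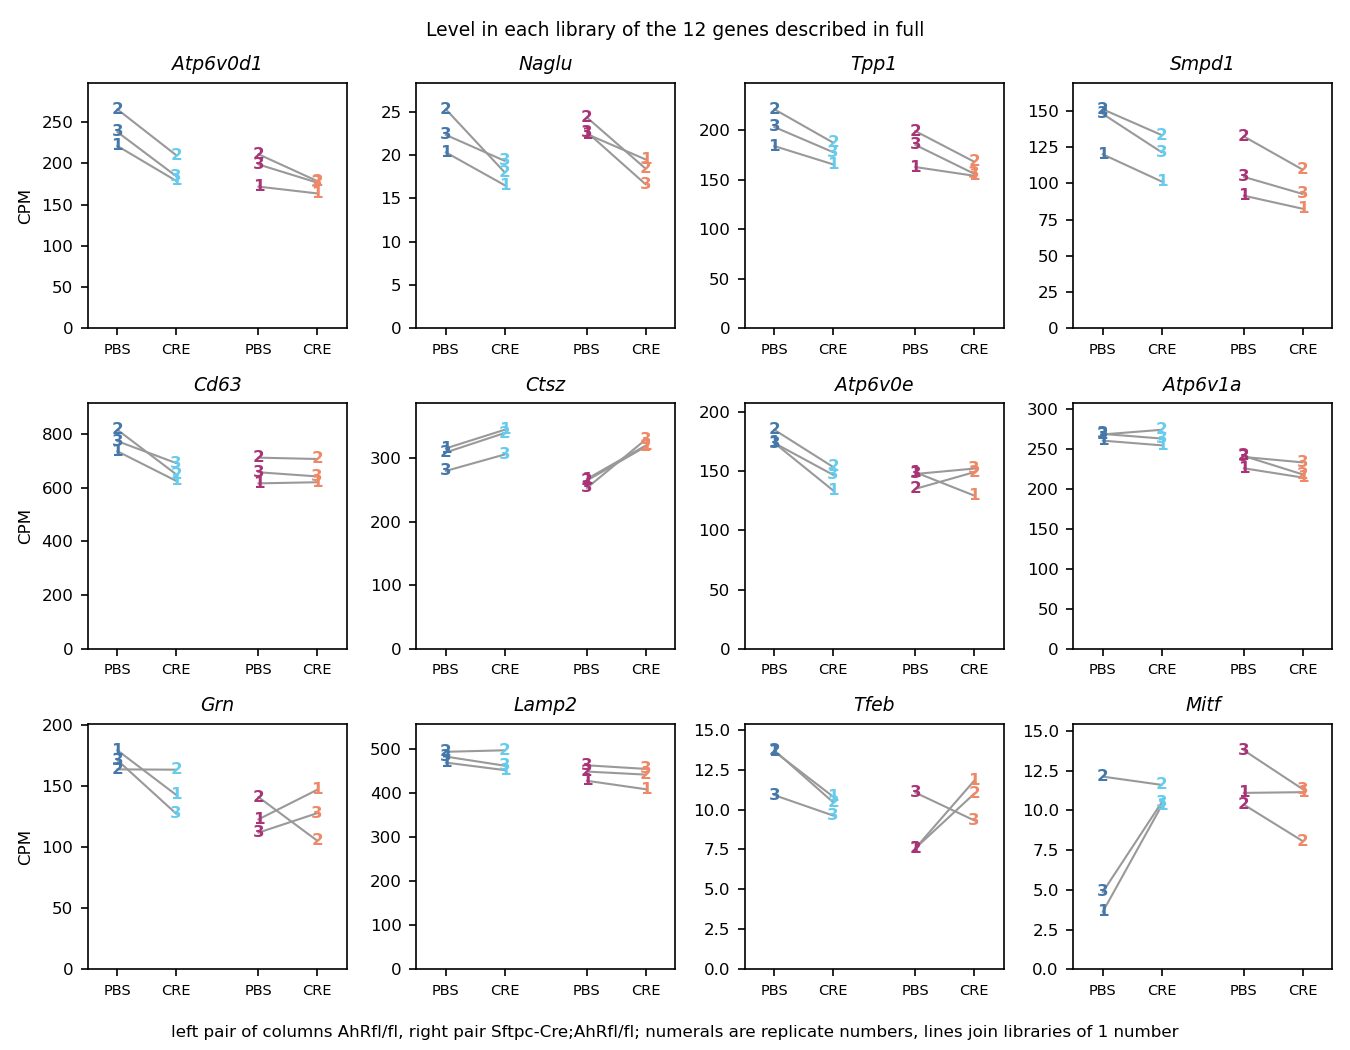
Level in CPM (vertical axis from 0) of the 12 genes described in full, in each of the 12 libraries, with lines joining the PBS and CRE libraries of 1 number within a genotype. The 3 lines of Atp6v0d1 in AhRfl/fl cells all descend, from 221 to 265 CPM with PBS to 179 to 210 CPM with CRE, and the 3 lines of Ctsz in Sftpc-Cre;AhRfl/fl cells all ascend.

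The genotypes were compared first without extract. Under PBS, 27 of the 35 genes had a log2 fold change below 0 in Sftpc-Cre;AhRfl/fl against AhRfl/fl cells, with a median of -0.13 against -0.0010 over all genes. This comparison shares the 3 AhRfl/fl PBS libraries with that of CRE in AhRfl/fl cells. The 10 AT2 markers summed to 7796 to 8683 CPM in AhRfl/fl and 4620 to 8881 CPM in Sftpc-Cre;AhRfl/fl PBS libraries, and the ciliated cell markers to 129 to 172 and 171 to 286 CPM. The part of both marker sets in the differences between genotypes was not tested. No gene of the set was called by edgeR, where 0.150% of all genes (31) were, or by DESeq2. At an unadjusted edgeR p under 0.05, 9 genes were lower and none higher (Neu1, Ctsd, Atp6v0d1, Atp6v0e, Ctsz, Tfeb, Cd63, Grn and Atp6v1a), where 8.37% of all genes met the limit. The groups did not overlap for 10 genes, all lower, against 14.0% of all genes, of which 1361 were higher and 1521 lower. By role, all 7 proteases (median -0.20), all 5 subunits of the vacuolar ATPase (-0.17) and all 6 membrane proteins (-0.12) were below 0, and 3 of 6 lipid enzymes and cofactors were.

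Grn (ENSMUSG00000034708, chr11:102430315-102437048, plus strand), progranulin, a secreted and lysosomal glycoprotein, had 179, 164 and 171 CPM in AhRfl/fl PBS libraries and 123, 141 and 112 CPM in Sftpc-Cre;AhRfl/fl PBS libraries. These groups did not overlap, and edgeR gave -0.45 on the log2 scale (SE 0.13, adjusted p = 0.376). Under CRE it had 143, 164 and 128 CPM in AhRfl/fl and 147, 105 and 128 CPM in Sftpc-Cre;AhRfl/fl cells, at -0.19 (adjusted p = 0.978, edgeR). The exons of Grn share bases with Fam171a2 on the other strand, which matters because the strand setting of the counting is not given in the sources used here. Atp6v0e had 149, 135 and 148 CPM in Sftpc-Cre;AhRfl/fl PBS libraries, all below the AhRfl/fl PBS libraries, at -0.30 (SE 0.079, adjusted p = 0.294, edgeR). Cd63 had 616, 712 and 657 CPM there, also all below, at -0.23 (SE 0.079, adjusted p = 0.483, edgeR), and Atp6v0d1 was at -0.32 (SE 0.097, adjusted p = 0.415, edgeR).

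The study's rule called 2 genes of the set under PBS, both transcription factors, where it called 4.10% of all genes. Tfeb (ENSMUSG00000023990, chr17:47737030-47792419, plus strand), the main regulator of lysosome biogenesis, had 13.6, 13.7 and 10.9 CPM in AhRfl/fl and 7.58, 7.58 and 11.1 CPM in Sftpc-Cre;AhRfl/fl PBS libraries. The Sftpc-Cre;AhRfl/fl library numbered 3 lay above the AhRfl/fl library numbered 3, so the groups overlapped. The limma-trend difference was -0.56 on the log2 scale, and edgeR gave -0.54 (SE 0.18, adjusted p = 0.443). Without Sftpc-Cre;AhRfl/fl PBS library 1 or 2 the limma-trend value was -0.47 in both cases and missed the size limit. Mitf had 11.1, 10.4 and 13.8 CPM in Sftpc-Cre;AhRfl/fl PBS libraries, and its limma-trend difference was 0.96, with 0.77 (SE 0.37, adjusted p = 0.616) by edgeR. The call on Mitf was lost without AhRfl/fl PBS library 1, at 0.60, without AhRfl/fl PBS library 3, at 0.81, and without Sftpc-Cre;AhRfl/fl PBS library 3, at 0.84. Without AhRfl/fl PBS library 2 the value was 1.47. Without the 4 libraries numbered 1 both calls were lost, at -0.41 for Tfeb and 0.64 for Mitf.

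The same comparison was made in cells given extract. Under CRE the median over the 35 genes was -0.057 with 24 below 0. For the set, edgeR called none (0.170% of all genes, 35 genes) and the study's rule none (3.42%). DESeq2, which called 174 of all genes, called Atp6v1a. The median was -0.012 without AhRfl/fl CRE library 2, -0.033 without Sftpc-Cre;AhRfl/fl CRE library 3 and -0.035 without Sftpc-Cre;AhRfl/fl CRE library 1. Atp6v1a was the one gene with an unadjusted edgeR p under 0.05, where 5.95% of all genes met the limit, and the groups did not overlap for Atp6v0d1 and Atp6v1a, both lower, against 11.0% of all genes.

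Averaged over treatments, Atp6v1a was the one gene of the set called by edgeR between genotypes, where 0.631% of all genes (130) were called. Atp6v1a (ENSMUSG00000052459, chr16:44085402-44139705, minus strand) encodes the catalytic A subunit of the proton pump, which binds ATP. It had 261, 269 and 269 CPM in AhRfl/fl PBS libraries and 226, 242 and 240 CPM in Sftpc-Cre;AhRfl/fl PBS libraries. With CRE it had 255, 274 and 263 CPM in AhRfl/fl and 215, 219 and 234 CPM in Sftpc-Cre;AhRfl/fl cells. All 6 Sftpc-Cre;AhRfl/fl libraries lay below all 6 AhRfl/fl libraries, and the averaged difference was -0.21 on the log2 scale (SE 0.040, adjusted p = 0.0468, edgeR). Because PBS and CRE libraries of 1 number deviate together, they are not independent, and after summing each such pair into 1 library edgeR gave -0.21 with an adjusted p of 0.659. The call was lost on leaving out any one of the 12 libraries (adjusted p from 0.059 to 0.146, log2 fold change from -0.23 to -0.19, edgeR) and without the 4 libraries numbered 1 (adjusted p = 0.209). It was kept in 7 of 23 alternative settings. Among these were DESeq2 (adjusted p = 0.000119), which called 522 of all genes, and limma-voom, which called 131. Both also took the PBS and CRE libraries of 1 number as independent.

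In the same average, 10 genes of the set had an unadjusted edgeR p under 0.05, all lower (Neu1, Ctsd, Atp6v0d1, Atp6v0e, Ctsz, Lamp2, Tpp1, Grn, Smpd1 and Atp6v1a), where 9.93% of all genes met the limit. The study's rule called none of the set, against 4.11% of all genes. Lamp2 (ENSMUSG00000016534, chrX:38401357-38456454, minus strand), a lysosomal membrane glycoprotein, had 469, 493 and 482 CPM with PBS and 452, 497 and 462 CPM with CRE in AhRfl/fl cells. In Sftpc-Cre;AhRfl/fl cells it had 428, 448 and 463 CPM with PBS and 408, 442 and 455 CPM with CRE, a small difference at -0.11 (SE 0.045, adjusted p = 0.432, edgeR). Smpd1 was at -0.34 (SE 0.11, adjusted p = 0.318) and Grn at -0.32 (SE 0.093, adjusted p = 0.234), both averaged over treatments by edgeR.

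The last comparison asked whether the response to CRE differed between genotypes. The interaction was above 0 for 27 of the 35 genes with a median of 0.082, against 0.0052 over all genes. It shares the 3 AhRfl/fl PBS libraries with the comparisons of CRE in AhRfl/fl cells and of genotypes under PBS, so it is not separate from them. For the interaction edgeR called no gene of the set and 0.00% of all genes, also with the pair block (0.00%). DESeq2 called 23 genes and none of the set. The median was 0.15 without Sftpc-Cre;AhRfl/fl PBS library 2, 0.050 without Sftpc-Cre;AhRfl/fl PBS library 3 and 0.051 without Sftpc-Cre;AhRfl/fl CRE library 2. At an unadjusted edgeR p under 0.05, Atp6v0e and Tfeb were above 0, 2 of 35 where 3.70% of all genes met the limit. Tfeb, called by the study's rule along with 2.30% of all genes, had 10.8, 10.5 and 9.62 CPM in AhRfl/fl CRE libraries and 11.8, 11.0 and 9.32 CPM in Sftpc-Cre;AhRfl/fl CRE libraries. With CRE its level was thus lower in all 3 AhRfl/fl pairs and higher in 2 of 3 Sftpc-Cre;AhRfl/fl pairs, and the limma-trend interaction was 0.61 against 0.60 (SE 0.25, adjusted p = 0.99998) by edgeR. The limma-trend call was kept on leaving out 5 of the 12 libraries in turn and lost on leaving out the other 7, namely AhRfl/fl PBS 1 and 2, AhRfl/fl CRE 3, Sftpc-Cre;AhRfl/fl PBS 1 and 2 and Sftpc-Cre;AhRfl/fl CRE 1 and 2, with values from 0.52 to 0.59. Without the 4 libraries numbered 1 the value was 0.42 and not called. For Atp6v0e, which had 130, 149 and 152 CPM in Sftpc-Cre;AhRfl/fl CRE libraries, edgeR gave an interaction of 0.29 (SE 0.11, adjusted p = 0.99998). With CRE the log2 fold change of Atp6v0e was -0.29 in AhRfl/fl and -0.0034 in Sftpc-Cre;AhRfl/fl cells.

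Genes were also split by CACGTG in the matched promoter, as a description with no test. For CRE in AhRfl/fl cells the median of the 13 genes with it was -0.10 on the log2 scale and all 13 were below 0, and the 18 without it had -0.14 with 13 below 0. Between genotypes under PBS the medians were -0.13 with it (11 of 13 below 0) and -0.14 without it (14 of 18).

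Other genes of the lysosomal pathway were examined from 4 lists. Of 41 further hydrolases and their processing enzymes, 34 had a log2 fold change below 0 with CRE in AhRfl/fl cells (median -0.19) and 33 in Sftpc-Cre;AhRfl/fl cells (median -0.11). None passed edgeR in any comparison without the block. With the pair block averaged over genotypes 12 were lower and 1 higher. That fit called 6.59% of all genes (716 higher and 642 lower). The lower genes include Ctss, which ranged from 4.10 to 107 CPM between the AhRfl/fl PBS libraries. The part of leukocyte RNA in these counts was not tested. The 18 tested of 20 further subunits of the vacuolar ATPase had medians of -0.12 with CRE in AhRfl/fl cells and -0.14 between genotypes under PBS. None was called by edgeR without the block, and with the pair block 1 was higher and 1 lower for CRE averaged over genotypes (Atp6v1c2 and Atp6v0a1), with Atp6v0a1 also lower in Sftpc-Cre;AhRfl/fl cells alone. The 20 regulators of TFEB had medians between -0.070 and 0.047 over the 7 comparisons, and none was called by edgeR, with or without the block for CRE averaged over genotypes.

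Of 30 further membrane and sorting proteins, 2 passed edgeR for CRE averaged over genotypes, where 1.10% of all genes passed. M6pr, the cation-dependent mannose 6-phosphate receptor that sorts hydrolases to lysosomes, rose, with PBS libraries between 195 and 207 CPM and CRE libraries between 221 and 242 CPM in AhRfl/fl cells. M6pr in Sftpc-Cre;AhRfl/fl cells lay between 186 and 200.2 CPM with PBS and between 215 and 224 CPM with CRE. Its averaged difference was 0.20 on the log2 scale (SE 0.040, adjusted p = 0.0471, edgeR). Tpcn2, a cation channel of the lysosomal membrane, fell, with PBS libraries between 70.8 and 95.0 CPM and CRE libraries between 51.2 and 63.2 CPM in AhRfl/fl cells. Tpcn2 in Sftpc-Cre;AhRfl/fl cells lay between 66.5 and 80.1 CPM with PBS and between 53.0 and 54.4 CPM with CRE. For Tpcn2 the averaged difference was -0.49 on the log2 scale (SE 0.082, adjusted p = 0.0179, edgeR). With the pair block, 2 of the 30 were higher and 6 lower, against 6.59% of all genes. The lower genes include Laptm5, at 5.99 to 92.6 CPM in AhRfl/fl PBS libraries, and the part of leukocyte RNA was not tested.

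The study's rule called 6 of these pathway genes in at least 1 of the 7 comparisons, where it called 2.30% to 4.11% of all genes in each single comparison. Nagpa, the uncovering enzyme that exposes mannose 6-phosphate on hydrolases, had 10.1 to 12.0 CPM with PBS and 18.5 to 21.8 CPM with CRE in AhRfl/fl cells, or 0.89 on the log2 scale (SE 0.28, adjusted p = 0.343, edgeR). The Sftpc-Cre;AhRfl/fl libraries had 10.8 to 20.5 CPM with PBS and 10.2 to 20.7 CPM with CRE. Slc17a5, the sialic acid exporter sialin, had 25.8 to 33.2 CPM in AhRfl/fl and 11.0 to 20.2 CPM in Sftpc-Cre;AhRfl/fl PBS libraries, at -0.80 (SE 0.21, adjusted p = 0.289, edgeR). Hyal2, a hyaluronidase, had 22.2 to 31.7 CPM in AhRfl/fl and 16.6 to 18.8 CPM in Sftpc-Cre;AhRfl/fl PBS libraries, and 24.5 to 30.6 CPM in the latter cells with CRE. Tpcn2 and Abcb9, a lysosomal peptide transporter at 2.20 to 5.14 CPM, were lower with CRE in AhRfl/fl cells under that rule, and so was Atp6v1g3, which stayed at or below 0.524 CPM in all 12 libraries.

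The genes of the set did not all vary together between libraries of a group. Over 595 pairs of genes, the median correlation of their deviations from group means across the 12 libraries was 0.146, with 61.7% above 0, and the median over all pairs of the 9899 genes with a mean of at least 10 CPM was 0.0285, with 52.4% above 0. All points share libraries and depth, so these are descriptions. The closest pairs were Psap with Lipa (r = 0.986), Lamp1 with Asah1 (0.952) and Atp6v0d1 with Tpp1 (0.945). The most opposed were Atp6v1h with Gusb (-0.954), Lipa with Asah1 (-0.951) and Lamp1 with Lipa (-0.950). Gaa, acid alpha-glucosidase, had the highest mean correlation with the other genes of the set at 0.361, and Lipa the lowest at -0.199. Tfeb was at 0.0053, Tfe3 at 0.270 and Mitf at 0.105.

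Some counts are less certain because of overlapping annotation. Exons of Ctsd share 808 bases with Gm49369, those of Ctsl 395 bases with Gm49230 and those of Glb1 165 bases with Tmppe on the same strand. Lamp1, Cln3, Atp6v1h, Ctsa, Ctsb, Ctsl, Ctsz, Hexa, Grn and Ppt1 overlap exons of a gene on the other strand.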

How the data were processed

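The authors prepared stranded mRNA libraries, aligned reads with STAR 2.7.2b to GRCm38 and counted with Salmon through Partek. The deposited table holds whole-number counts per gene and the authors' FPKM for 12 libraries, and how whole numbers were reached is not given in the sources used here. All 55450 gene identifiers matched GENCODE M21, although the study's methods name RefSeq. Counts were used for tests and the deposited FPKM for levels between genes, with 0.0001 listed where a count is 0.

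Counts were filtered with filterByExpr (minimum count 10), scaled by TMM and fitted in edgeR 4.0.16 (R 4.3.3) with quasi-likelihood tests on 4 group means over all 12 libraries, with Benjamini-Hochberg adjustment over 20612 genes and a threshold of 0.05. The study's rule was counted beside it with limma 3.58.1 (limma-trend, prior count 2). DESeq2 1.42.0, limma-voom, log2(FPKM + 1), other scalings and filters, and leaving out each library were alternatives. Tables and figures were made with Python 3.11.15 and pandas 2.3.3. The edgeR, limma-trend, DESeq2 and pair-block fits were run on simulated data, and a pass limit was set for edgeR without the block only. The simulated libraries were independent, with changes in the AhRfl/fl CRE group and no pair effect. They therefore do not show how the pair-block fit behaves on libraries that deviate together.

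The labels number the libraries 1 to 3. Over 14543 genes, deviations from group means correlated between PBS and CRE libraries of 1 number at 0.416 to 0.714 in AhRfl/fl and 0.312 to 0.577 in Sftpc-Cre;AhRfl/fl cells, so the numbers were taken as pairs within a genotype, from the data and not from a stated shared animal. The 35 genes and all lists were chosen with earlier results of these data known. Full values are given for genes called by either rule in any of 7 comparisons and for the 3 with the smallest edgeR p in each.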

Additional observations from a re-analysis of the deposited data

Results flagged for a closer look

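Tfeb differed in its response to CRE between genotypes under the study's rule, with a limma-trend interaction of 0.61 on the log2 scale, while edgeR's adjusted p for it was 0.99998. Lamp1 had an edgeR interaction of 0.10 on the log2 scale (SE 0.13, adjusted p = 0.99998). It was flagged because CRE was lower than PBS in all 3 AhRfl/fl pairs and higher in all 3 Sftpc-Cre;AhRfl/fl pairs. Gusb had the same arrangement of pairs, with an interaction of 0.11 (SE 0.17, adjusted p = 0.99998, edgeR). Changes of single pairs ran from -0.079 to 0.062 on the log2 scale for Lamp1 and from -0.039 to 0.13 for Gusb. Neither Lamp1 nor Gusb passed the test of the difference itself. The share of all genes with that arrangement was not counted, so it marks neither gene out from the rest.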

How the results depend on the processing

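Of 470 repeats of the log2 fold changes of single genes none reversed in direction, 16 gained and 42 lost a call. These repeats covered only genes chosen from the same data, as called or among the smallest edgeR p of a comparison. That choice favours a stable direction, so the repeats do not show how stable the other genes of the set are. For CRE in AhRfl/fl cells edgeR called 0 genes of the set, DESeq2 1 and the replicate block 3. For CRE in Sftpc-Cre;AhRfl/fl cells edgeR called 0, DESeq2 1 and the replicate block 1. Between genotypes under CRE, DESeq2 and log2(FPKM + 1) each called 1. For CRE averaged over genotypes the count of 0 became 1 with a filter of 1 CPM in 3 libraries, 1 with log2(FPKM + 1), 3 with DESeq2 and 9 with the replicate block. For genotype averaged over treatments the count of 1 became 0 with size factors in the style of DESeq2, with no filter, after summing the libraries of 1 number, on leaving out any one library (range 0 to 0) and without the 4 libraries numbered 1, an alternative added after seeing the data. Blocking on the number across genotypes gave 3 (Atp6v0d1, Smpd1 and Atp6v1a), but the labels do not state what a number shares between genotypes. In order of number, deviations correlated between genotypes at 0.405, 0.032 and 0.094 under PBS and 0.398, -0.031 and 0.083 under CRE. The libraries numbered 1 thus deviated together across genotypes, and the others hardly did with the library of the same number. AhRfl/fl library 3 correlated with Sftpc-Cre;AhRfl/fl library 2 at 0.269 under PBS and 0.341 under CRE. The remaining pairs of unlike number lay between -0.403 and 0.116. The causes were not tested.

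Under the study's rule, the count of 1 for CRE in AhRfl/fl cells became 0 with log2(FPKM + 1), with the compared groups alone and without the libraries numbered 1, and 0 to 1 on leaving out a library. The count of 2 between genotypes under PBS became 1 with log2(FPKM + 1), 1 with the compared groups alone, 1 to 2 on leaving out a library and 0 without the libraries numbered 1. The interaction count of 1 became 2 with library size alone, 2 with the replicate block (Tfeb and Mitf), 0 with log2(FPKM + 1), 0 to 1 on leaving out a library and 0 without the libraries numbered 1. Both averaged counts of 0 reached 1 without AhRfl/fl PBS library 2. The replicate block moved no other count of calls in the set.

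The median over the 35 genes for CRE in Sftpc-Cre;AhRfl/fl cells turned from -0.063 to 0.022 without Sftpc-Cre;AhRfl/fl PBS library 2, where the interaction median was 0.15. Over all genes, CRE in AhRfl/fl cells gave 48 calls with edgeR, 409 with DESeq2, 748 with the replicate block and 70 with log2(FPKM + 1), and CRE in Sftpc-Cre;AhRfl/fl cells 54, 254, 439 and 65. Between genotypes edgeR and DESeq2 gave 31 and 243 under PBS, 35 and 174 under CRE and 130 and 522 averaged, and for CRE averaged 226 and 740, with 1358 for the block. With 3 libraries a group, the SE of a log2 fold change for CRE in AhRfl/fl cells ran from 0.057 for Atp6v1a to 0.75 for Lipa, which limits the differences that could be called.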
